A study of Rattus norvegicus with 6 samples.

Results

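The 10 matrix metalloproteinase genes Mmp2, Mmp3, Mmp7, Mmp8, Mmp9, Mmp10, Mmp11, Mmp12, Mmp13 and Mmp14 were followed in rat bone marrow stromal cells by taking every probe that the array design names for them. They made up 10 of the 34869 genes on the array and were read by 13 probes on 41 spots. The cells were isolated from tibia marrow and cultured for 7 days on a Ta-modified Ti surface (Ta, 3 arrays) or on a simple Ti surface (Ti, 3 arrays), where Ta and Ti are the chemical symbols of tantalum and titanium. The design text describes 3 independent experiments in each group, and the labels used here give no strain, sex, age, passage or other treatment. Total RNA was labelled with 1 dye, and all 6 arrays lay on 1 slide. Every level below is a log2 processed signal scaled between arrays, and every difference is Ta minus Ti. Levels of different probes were not set against each other, since a probe's brightness also depends on its sequence.

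Matrix metalloproteinases are zinc-dependent endopeptidases that cut collagens and other proteins of the extracellular matrix and the pericellular space. Most are secreted as inactive proenzymes, become active when the propeptide is removed, and are held in check by the tissue inhibitors of metalloproteinases (TIMPs). In bone and marrow they take part in collagen turnover, cell migration and the release of matrix-bound growth factors, and several of them are classical genes of the response to interleukin 1 and other inflammatory cytokines.

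The arrays were of like quality, with 62.7% to 65.9% of non-control spots well above background and no saturated spot. A gene was tested when its brightest probe exceeded background clearly (the scanner software's flag) on 3 or more of the 6 arrays, as 19587 genes did. Of these, 811 (4.14%) passed an adjusted p of 0.05 in limma with Benjamini-Hochberg adjustment, and 35.8% had all Ta arrays on one side of all Ti arrays. Of 11 mesenchymal stromal markers 10 were tested, with mean levels of 12.97 to 13.06 on the Ta arrays and 12.84 to 12.94 on the Ti arrays, while Lepr was not. Thy1 and Cxcl12 passed and were higher on Ta, by 0.67 and 1.06 with adjusted p of 0.0439 and 0.0452 in limma, and the other 8 did not pass. A dimmer Thy1 probe gave 0.36 and did not pass, with an adjusted p of 0.166 in limma over all probes, while the dimmer Cxcl12 probes passed there. All 14 macrophage and monocyte markers were bright enough to be tested too. In RNA of whole cultures, fewer cells of a type and less RNA per cell cannot be told apart. Slide row 1 held Ti replicate 1 beside the 3 Ta arrays, row 2 held the other 2 Ti arrays, and the scanner software marked Ti replicate 2 for evaluation.

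Of the 10 metalloproteinase genes 9 were tested and Mmp8 was not, being too dim. Mmp7 fell on Ta and was the 1 member that passed, beside 4.14% of all genes tested (1.48% lower on Ta and 2.66% higher). It met the filter through the Ti group, where it was high, being well above background on 1 Ta array and 3 Ti arrays. With no filter on background its adjusted p was 0.121 in limma. Of the 12 member probes tested as rows of their own, its 1 probe passed, beside 4.31% of all probes. The stromelysins Mmp3 and Mmp10 and the collagenase Mmp13 were higher on every Ta array than on any Ti array, by 3.35-fold, 5.14-fold and 2.64-fold, yet with adjusted p of 0.0587, 0.0549 and 0.0998 in limma they did not pass. Mmp11 and Mmp12 were lower on every Ta array and did not pass, and the groups overlapped for Mmp2, Mmp9 and Mmp14. The median difference over the 9 tested members was 0.10, with 5 above 0 and 4 below, beside 0.03 over all genes tested. In 6 of the 9 tested members the groups did not overlap, beside the 35.8% of all genes. All Ta arrays were above all Ti arrays in 3 members (19.5% of all genes) and below them in 3 (16.3% of all genes). An unadjusted p under 0.05 was found in 6 of the 9 and in 30% of all genes.

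**Figure D1:**
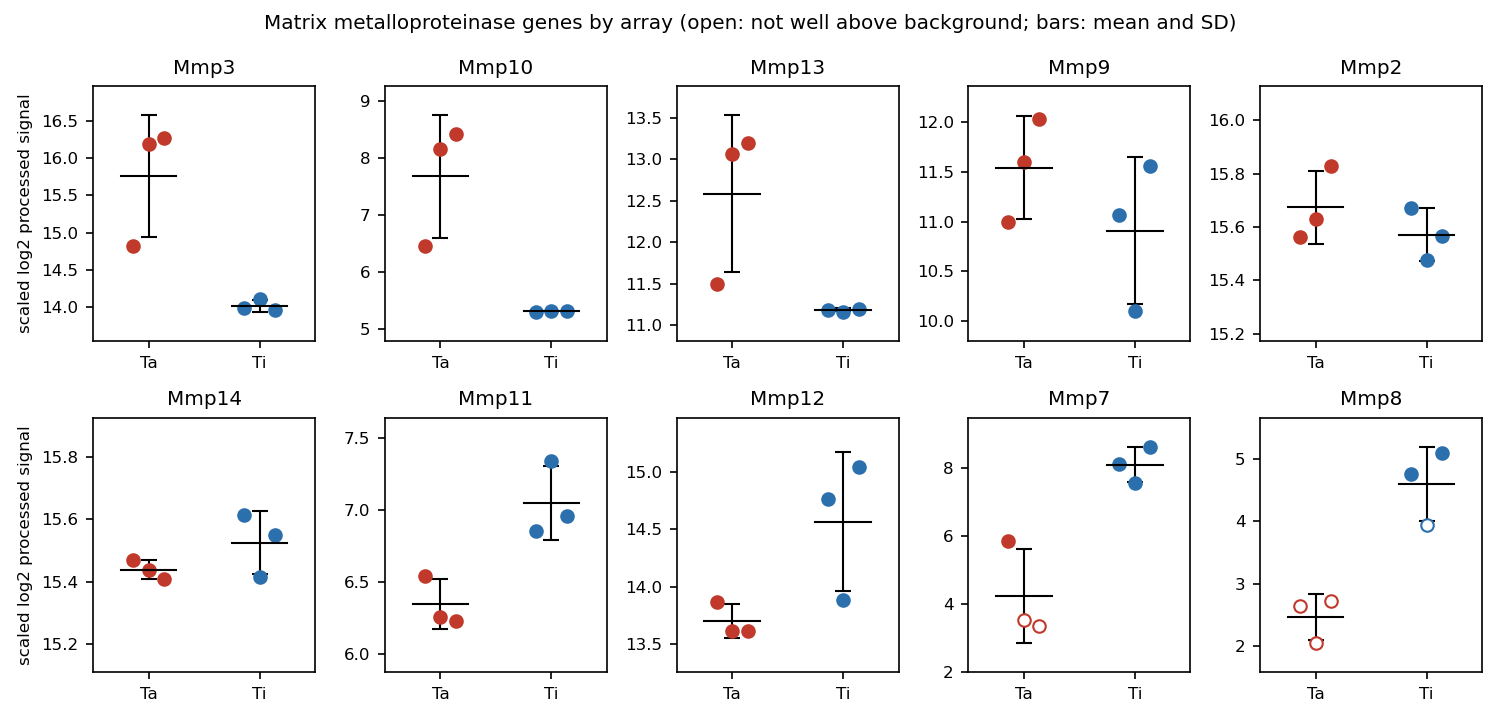
Scaled log2 processed signal (y axis, a separate range per panel) of the 10 metalloproteinase genes on 3 Ta arrays (red) and 3 Ti arrays (blue). Each point is 1 array, open where the probe was not well above background, and the black lines give the mean and SD. For Mmp3, Mmp10 and Mmp13 the Ti points nearly coincide while the Ta points spread, with Ta replicate 1 lowest, and for Mmp7 and Mmp8 the Ta points lie well below the Ti points.

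The genes Mmp13, Mmp12, Mmp3, Mmp10, Mmp8 and Mmp7 lie, in this order, in 1 cluster on chromosome 8, where all 10 protein-coding genes from Mmp13 to Mmp7 in the RefSeq annotation (GRCr8) encode metalloproteinases. Of the 10 members 7 had a promoter sequence in the RefSeq table (GRCr8), from 250 bases before to 50 after the annotated start. The AP-1 motif TGANTCA, the binding letters of FOS and JUN dimers, was present in 5 of these 7, beside 7.33% of 33469 promoters, searched on both strands. These 5 are shown, so every sequence below carries the motif by choice, and Mmp8 and Mmp11 had no match. The 5 include the tested members with the largest differences in both directions. Each line gives the 150 bases before the start in the GRCr8 build, 5′ to 3′, with the AP-1 motif and TATAAA in capitals.

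Mmp3, chr8:12925131-12925280, plus strand: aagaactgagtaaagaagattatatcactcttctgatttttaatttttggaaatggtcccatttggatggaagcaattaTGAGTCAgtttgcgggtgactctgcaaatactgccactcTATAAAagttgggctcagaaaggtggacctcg

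Mmp10, chr8:12974557-12974706, plus strand: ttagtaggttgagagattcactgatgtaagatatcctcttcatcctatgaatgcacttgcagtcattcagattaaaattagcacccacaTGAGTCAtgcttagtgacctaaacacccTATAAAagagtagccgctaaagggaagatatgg

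Mmp13, chr8:12782679-12782828, plus strand: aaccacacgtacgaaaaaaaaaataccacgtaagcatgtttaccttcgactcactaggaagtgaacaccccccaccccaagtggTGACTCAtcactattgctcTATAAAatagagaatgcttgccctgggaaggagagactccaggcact

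Mmp12, chr8:12866502-12866651, plus strand: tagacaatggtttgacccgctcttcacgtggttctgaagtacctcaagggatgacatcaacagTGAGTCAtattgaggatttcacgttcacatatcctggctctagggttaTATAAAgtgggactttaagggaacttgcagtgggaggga

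Mmp7, chr8:13132893-13133042, plus strand: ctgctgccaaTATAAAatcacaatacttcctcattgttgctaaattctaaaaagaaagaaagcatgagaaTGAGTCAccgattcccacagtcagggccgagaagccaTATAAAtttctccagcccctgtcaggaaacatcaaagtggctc

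The first base of the AP-1 motif lay at -71 in Mmp3, -61 in Mmp10, -66 in Mmp13, -87 in Mmp12 and -80 in Mmp7, counted back from the annotated start. The 5 members with the motif thus comprise Mmp3, Mmp10 and Mmp13, higher on the Ta arrays, and Mmp12 and Mmp7, lower on them. TATAAA, on either strand, was in 6 of 7 members' promoters (14.22% of all). The letters TGNGGT, a loose form of the RUNX core TGTGGT or TGCGGT, were in 3 of 7 (47.06% of all), namely Mmp8, Mmp12 and Mmp13. Of these, Mmp8 and Mmp13 hold the core, while the match in Mmp12 reads TGAGGT and lies outside it. The share of promoters with the core alone was not counted. The NF-kB letters, GGG and TTTCC with any 2 bases between them, were in 0 of 7 (1.53% of all). A match of letters describes the sequence and shows no binding.

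The stromelysins cut proteoglycans, fibronectin and laminin and can activate other proenzymes of the family. Mmp3 (stromelysin-1) was read by 2 probes. The brighter one, with 2 spots, gave 14.82, 16.19 and 16.28 on Ta replicates 1 to 3, against 13.99, 14.11 and 13.96 on Ti replicates 1 to 3. All Ta arrays lay above all Ti arrays, Ta replicate 1 closest to them, at 36.4% of the distance that the other 2 Ta arrays averaged from the Ti mean. The difference was 1.74 ± 0.39 (SE of limma, n = 3 arrays per group), with a 95% interval of 0.81 to 2.68. The other Mmp3 probe lies elsewhere in the transcript and gave 11.08, 12.88 and 12.85 on Ta, against 10.45, 10.43 and 10.42 on Ti. Its difference was 1.84 and had an adjusted p of 0.0747 in limma over all probes, so both probes showed the same order of arrays between groups.

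Mmp10 (stromelysin-2), a close relative of Mmp3, had the largest positive difference of the members. It gave 6.45, 8.15 and 8.42 on the Ta arrays, against 5.31, 5.32 and 5.32 on the Ti arrays. The probe was dim but well above background on all 6 arrays, and its deposited processed signals were 84.1, 274 and 309 on Ta, against 46.0, 39.6 and 41.5 on Ti. The difference was 2.36 ± 0.50 (SE of limma, n = 3 arrays per group), with a 95% interval of 1.14 to 3.58. Ta replicate 1 again lay between the Ti arrays and the other Ta arrays, at 38.1% of their distance. With normexp background correction the difference was 1.45 and passed, in a fit where 13.3% of all genes passed.

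The dimmer of the 2 Mmp3 probes, the Mmp10 probe and the Mmp12 probe described further on are shown. Each joins stretches of the genome that lie apart, as spliced RNA does. The brighter Mmp3 probe, which stood for the gene, is not shown. In the array design's coordinates (rn4, RGSCv3.4) these probes of 60 bases span 466, 732 and 357 bases. Their sequences, 5′ to 3′ in lower case with no part capitalised, are as follows.

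Mmp3 probe A_44_P318318, chr8:4325061-4325526, plus strand: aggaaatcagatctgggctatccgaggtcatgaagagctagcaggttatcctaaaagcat

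Mmp10 probe A_44_P404861, chr8:4373403-4374134, plus strand: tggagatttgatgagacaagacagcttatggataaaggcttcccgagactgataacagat

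Mmp12 probe A_44_P555271, chr8:4259057-4259413, plus strand: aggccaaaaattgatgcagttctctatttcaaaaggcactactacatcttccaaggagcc

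Mmp11 (stromelysin-3), a distant relative that is activated inside the cell by furin-like proteases, ran the other way. It gave 6.54, 6.26 and 6.23 on the Ta arrays, against 6.85, 7.34 and 6.95 on the Ti arrays. Every Ta array lay below every Ti array, with a gap of 0.31 between the groups. The difference was -0.70 (SE 0.16, limma, n = 3 arrays per group), with a 95% interval of -1.09 to -0.32, and its adjusted p was 0.062 in limma. With normexp background correction it was -0.36.

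The collagenases Mmp13 and Mmp8 open the triple helix of fibrillar collagens. Mmp13 (collagenase-3), the main interstitial collagenase of rodents and a gene of late osteoblasts and hypertrophic chondrocytes, gave 11.50, 13.07 and 13.19 on the Ta arrays, against 11.19, 11.17 and 11.20 on the Ti arrays. Ta replicate 1 stood only 0.30 above the highest Ti array, while the other 2 Ta arrays stood far above it. The difference was 1.40 ± 0.44 (SE of limma, n = 3 arrays per group), with a 95% interval of 0.33 to 2.48. For scale, the SD between the Ti arrays was 0.018 and that between the Ta arrays 0.94. For Mmp3 these SDs were 0.81 on Ta and 0.079 on Ti, and for Mmp10 they were 1.07 on Ta and 0.006 on Ti. Without Ta replicate 1 all 3 genes passed, with differences of 2.21, 2.97 and 1.95 and adjusted p of 0.00277, 0.00277 and 0.00283 in limma, in a fit where 16.5% of all genes passed. With any other array left out none of the 3 passed. Without Ta replicate 3 the differences of Mmp3, Mmp10 and Mmp13 were 1.49, 1.99 and 1.10, with adjusted p of 0.162, 0.148 and 0.256 in limma.

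Mmp8 (neutrophil collagenase), best known from neutrophil granules, failed the background flag on all 3 Ta arrays and met it on 2 of 3 Ti arrays. It gave 2.64, 2.05 and 2.72 on Ta, against 4.76, 3.93 and 5.10 on Ti. Taking the lowest signal well above background on each Ta array as its limit there, Mmp8 was at least 2.07-fold lower on Ta. That limit is nominal, since Ti replicate 2 failed the flag at 3.93, above the lowest such signal of its own array, 3.60. No test was made within the filter, and with every gene tested its adjusted p was 0.114 in limma. Of 9 neutrophil markers, S100a9, Elane, Ngp, Ltf and Cxcr2 met the flag on 0 of 6 arrays. The mean level of the 4 tested ones was 6.05, 6.44 and 6.34 on Ta and 4.62, 5.29 and 4.88 on Ti, the opposite order to that of Mmp8. Of these 4, S100a8 and Camp passed, both higher on Ta, beside 2.66% of all genes. Mpo differed by 1.66 and did not pass. Csf3r went the other way, in the direction of Mmp8, with a difference of -0.88 and an adjusted p of 0.232 in limma.

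The gelatinases cut denatured collagen and basement membrane collagen. Mmp2 (gelatinase A), made constitutively by stromal cells, gave 15.56, 15.63 and 15.83 on the Ta arrays, against 15.67, 15.48 and 15.57 on the Ti arrays. Each value is the mean of the probe's unflagged spots, 7 of 10 on Ta replicate 1, 9 on Ti replicate 1 and 10 on the other arrays. The groups overlapped, and the difference was 0.10 ± 0.10 (SE of limma, n = 3 arrays per group), with a 95% interval of -0.15 to 0.35. Within an array the SD between the unflagged spots was 0.042 to 0.091, below the SD between arrays of 0.14 on Ta and 0.098 on Ti. The other Mmp2 probe gave a difference of -0.07, with overlapping groups as well.

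Mmp9 (gelatinase B), the gelatinase of osteoclasts, macrophages and neutrophils, gave 11.00, 11.60 and 12.03 on the Ta arrays, against 11.06, 10.10 and 11.55 on the Ti arrays. The groups overlapped, with Ti replicate 2 the lowest of all 6. The difference was 0.63 ± 0.42 (SE of limma, n = 3 arrays per group), with a 95% interval of -0.39 to 1.66, which includes both no difference and more than that of Mmp13. Leaving out Ta replicate 3 gave 0.39, and leaving out Ti replicate 2 or Ti replicate 3 gave 0.23 or 0.96, and Mmp9 passed in none of these fits.

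Mmp14 (membrane type 1 metalloproteinase) sits in the cell membrane, cuts collagen at the cell surface and activates the Mmp2 proenzyme. It gave 15.47, 15.44 and 15.41 on the Ta arrays, against 15.61, 15.41 and 15.55 on the Ti arrays. Each value is the mean of the unflagged spots, 7 of 10 on Ti replicate 2 and 10 on the other arrays. The difference was -0.09 (SE 0.08, limma, n = 3 arrays per group), with a 95% interval of -0.29 to 0.12. Its other probe, also on 10 spots, gave -0.12, with an adjusted p of 0.356 in limma over all probes. For that probe every Ta array lay below every Ti array, by a gap of only 0.006. The 2 probes share 50 of their 60 bases and are no independent readings. For Mmp2 and Mmp14 the intervals therefore leave room for changes of at most 0.35 on the log2 scale in either direction, in contrast to the intervals of Mmp3, Mmp10 and Mmp13.

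**Figure D2:**
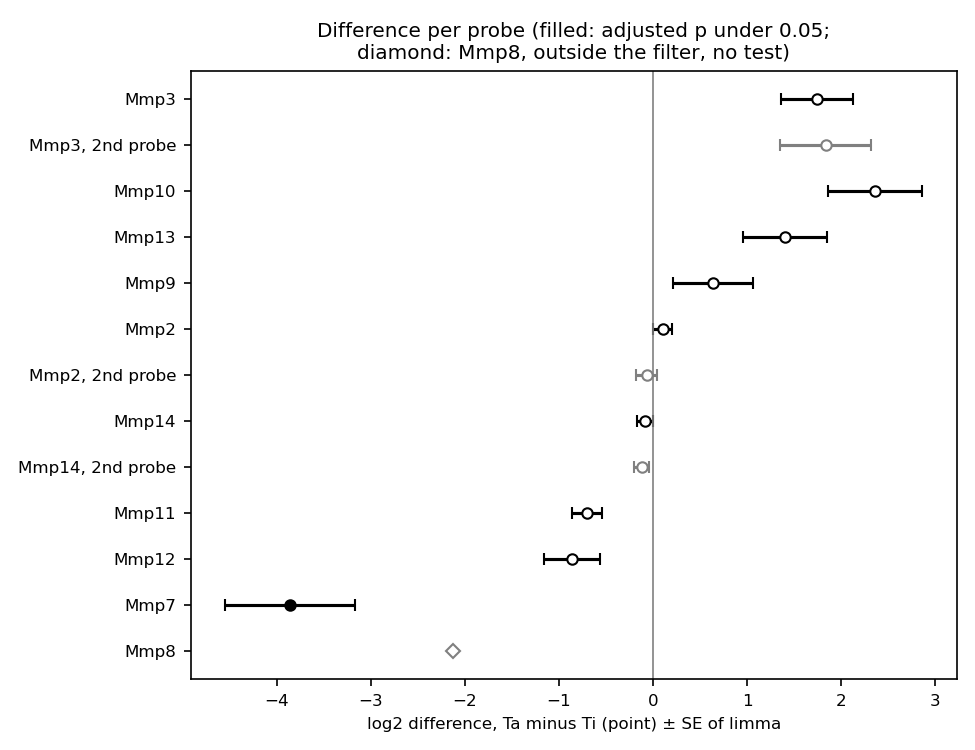
Log2 difference, Ta minus Ti (x axis), of each metalloproteinase probe, with the SE of limma as bars; black marks the probe used for the gene and grey its other probe. The filled point, Mmp7 at -3.86, passed the adjusted p of 0.05, and the diamond, Mmp8, was outside the filter; both probes of Mmp3 lie near 1.8 and all probes of Mmp2 and Mmp14 near 0.

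Mmp7 (matrilysin) lacks the haemopexin domain of most family members and is known mainly from epithelia, with expression in macrophages described as well. It gave 5.84, 3.51 and 3.36 on the Ta arrays, against 8.12, 7.57 and 8.60 on the Ti arrays. The deposited processed signals were 55.0, 11 and 9.25 on Ta, against 323, 188 and 404 on Ti. The probe met the background flag on 1 of 3 Ta arrays, replicate 1, and on all 3 Ti arrays, so it met the filter through the Ti group, where it was high, and the other 2 Ta values are not well above background. Mmp7 fell, with a difference of -3.86 (SE 0.69, limma, n = 3 arrays per group), a 95% interval of -5.53 to -2.18 and an adjusted p of 0.0452. The size and its interval rest in part on those 2 dim readings. With every gene tested and no filter on background the adjusted p was 0.121, in a fit where limma called 0 genes and 5810 had an unadjusted p under 0.05. With dim values raised to the lowest signal well above background, the difference was -3.77. With normexp background correction, which compresses dim signals, it was -1.76 and passed, in a fit where 13.3% of all genes passed.

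The direction and approximate size of the Mmp7 difference held when any 1 array was left out, while the call did not always hold. Without Ta replicate 2 or 3 or Ti replicate 1 or 3 the difference was -3.50, -3.42, -3.85 and -3.60, and the adjusted p was 0.165, 0.134, 0.135 and 0.166 in limma, in fits where no gene passed and where 3815, 3899, 4470 and 3813 genes had an unadjusted p under 0.05. The call held without Ta replicate 1 (-4.66, adjusted p 0.00583) or Ti replicate 2 (-4.12, adjusted p 0.0486), in limma fits where 16.5% and 7.96% of all genes passed. Within slide row 1, where 3 Ta arrays met Ti replicate 1 alone, the difference was -3.88 and the adjusted p 0.205 in a limma fit with slide row as a block.

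Mmp12 (macrophage elastase) cuts elastin and is made chiefly by macrophages. It gave 13.87, 13.62 and 13.62 on the Ta arrays, against 14.77, 13.89 and 15.05 on the Ti arrays. The groups were separated by only 0.013, between Ti replicate 2 and Ta replicate 1. The difference was -0.86 (SE 0.30, limma, n = 3 arrays per group), with a 95% interval of -1.58 to -0.14 and an adjusted p of 0.118. Without Ti replicate 2 it was -1.20 and passed, with an adjusted p of 0.0298 in limma, in a fit where 7.96% of all genes passed. With any other array left out it was -0.62 to -0.95 and did not pass, with adjusted p of 0.1285 to 0.2922.

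Levels of markers of other cell types were read on the same arrays. The 14 macrophage and monocyte markers averaged 11.25, 10.48 and 9.75 on Ta, against 11.51, 11.54 and 11.59 on Ti; 13 of 14 were lower on Ta, and none passed. The 5 osteoclast markers tested, of 7 on the array, averaged 9.15, 8.46 and 8.37 on Ta, against 9.70, 9.09 and 9.83 on Ti, and none of them passed. Ti replicate 2 was the lowest Ti array for this mean, and for 7 of the 10 metalloproteinase genes (Mmp2, Mmp7, Mmp8, Mmp9, Mmp12, Mmp13 and Mmp14), but not for the macrophage mean. Of 5 epithelial markers none was tested, since Epcam, Cdh1, Krt8 and Krt19 met the flag on 0 arrays and Krt18 on 1. Among 7 mast cell markers 6 were tested, averaging 5.34, 5.03 and 5.15 on Ta and 6.70, 7.10 and 6.68 on Ti, and 4 of these (Kit, Cpa3, Cma1 and Mcpt8) fell, beside 1.48% of all genes. The probes of Mcpt8 differed in size, since the brighter one gave -2.16 and the other -0.41, with an adjusted p of 0.585 in limma over all probes. Cma1 met the background flag on 0 Ta and 3 Ti arrays and Cpa3 on 1 and 3, so both entered the test through the Ti group. Hdc went the other way, since its brightest probe was higher on every Ta array, by 0.73, and did not pass. Its other probe gave 0.86 and passed, with an adjusted p of 0.0393 in limma over all probes, of which 4.31% passed. The part of these cell types in the values of Mmp7, Mmp9 and Mmp12 was not tested.

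**Figure D3:**
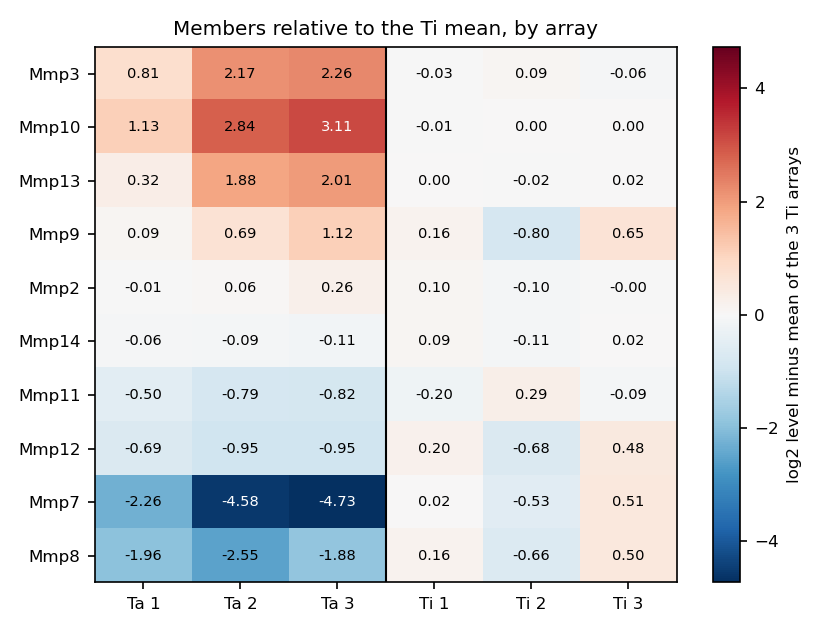
Level of each metalloproteinase gene (rows) on each array (columns, Ta left of Ti) minus the mean of the 3 Ti arrays, as log2 values in colour and figures. Ta replicate 1 is paler than the other Ta arrays for Mmp3, Mmp10, Mmp13 and Mmp7, and Ti replicate 2 is the lowest Ti array for 7 of the 10 genes.

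Genes whose pattern over the 6 arrays was most like that of Mmp7, by the smallest root mean square difference of levels centred on their mean, were Tmem176a, Clec4a1 and Tmem176b. Their root mean square differences from Mmp7 were 0.25, 0.32 and 0.33, with Pearson's r of 0.993, 0.992 and 0.991 over 6 arrays that fall into 2 groups. Tmem176a gave 6.58, 4.60 and 3.60 on Ta, against 8.84, 8.26 and 9.16 on Ti. Its value on Ta replicate 3 lay below the lowest signal well above background on that array, 3.63. Mmp7 was not well above background there either, so the likeness rests in part on dim readings. Like Mmp7, Tmem176a had its highest Ta value on replicate 1 and its lowest Ti value on replicate 2.

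Among 14 other metalloproteinase genes 13 were on the array and 8 were tested, and none of these passed. The largest difference was 0.70 for Mmp1b, a rodent relative of interstitial collagenase that was well above background on 2 Ta arrays and 1 Ti array, followed by 0.52 for the brightest probe of the membrane-type enzyme Mmp16, and the list's median was 0.13. The probes of Mmp16 disagreed in sign, since its other 2 gave 0.21 and -0.70, the last with an adjusted p of 0.085 in limma over all probes, so no direction is given for it. Mmp1, Mmp20, Mmp21, Mmp27 and Mmp28 were not tested. In the chromosome 8 cluster, the tested genes thus comprised Mmp3, Mmp10, Mmp13 and Mmp1b with positive differences and Mmp7 and Mmp12 with negative ones.

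All 7 inhibitor genes listed were tested and none passed, with a median of -0.13. Timp1, which inhibits most secreted metalloproteinases, gave 15.94, 16.19 and 16.12 on Ta, against 15.55, 15.89 and 15.66 on Ti, a difference of 0.38 with groups that did not overlap and an adjusted p of 0.102 in limma. Timp3, the inhibitor bound to the matrix, gave 9.70, 9.17 and 9.16 on Ta, against 10.22, 9.74 and 10.05 on Ti, a difference of -0.66 with an adjusted p of 0.0891 in limma. Its dimmer probes gave smaller differences, -0.37 and -0.45, with adjusted p of 0.204 and 0.266 in limma over all probes. Timp2, which takes part in Mmp2 activation with Mmp14, differed by 0.04 and Timp4 by -0.13. The protease scavenger A2m differed by -0.64 and had an adjusted p of 0.113.

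None of the 11 genes for activators, stabilisers and clearance passed, with a median of 0.13. Lcn2, whose product binds and stabilises the Mmp9 protein, had the largest difference, 3.04, with 14.02, 14.65 and 14.75 on Ta, against 10.51, 13.08 and 10.72 on Ti, and an adjusted p of 0.0621 in limma. Ti replicate 2 stood far above the other Ti arrays for this gene. Plau, the urokinase that starts the plasmin cascade, differed by -1.49 and had an adjusted p of 0.089.

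Of 12 inducers, cytokines and receptors linked to metalloproteinase transcription, 3 rose, none fell and 9 did not pass, with a median of 0.29. Over all genes tested 2.66% rose and 1.48% fell. Il1a gave 10.08, 11.10 and 9.79 on Ta, against 6.87, 8.10 and 6.92 on Ti, a difference of 3.03 with an adjusted p of 0.0408 in limma. Il6 gave 7.36, 8.85 and 8.28 on Ta, against 5.94, 6.24 and 5.88 on Ti, a difference of 2.14 with an adjusted p of 0.0449. Il6st, the shared signalling receptor of the interleukin 6 family, rose by 1.04, with an adjusted p of 0.0438. For all 3 the Ta arrays lay above the Ti arrays.

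Of 19 genes for AP-1, NF-kB, ETS and RUNX factors 1 rose and 1 fell, beside 2.66% and 1.48% of all genes. The list's median was -0.08. Fosl2, an AP-1 subunit, differed by 0.85 with an adjusted p of 0.0481, and Fosb, another, by -1.16 with an adjusted p of 0.0397 in limma, so both members that passed belong to AP-1 and moved in opposite directions. Of 18 substrate genes 17 were tested and 3 fell, beside 1.48% of all genes, with a median of -0.15. Tenascin-C (Tnc) differed by -0.83, and the type V collagen chains Col5a1 and Col5a2 by -0.54 and -0.48, with adjusted p of 0.0494, 0.0452 and 0.0474 in limma and all Ta arrays below all Ti arrays. Over the 6 lists 8 of 74 genes tested passed, beside 4.14% of all genes; slide row as a block, or leaving out Ta replicate 2 or 3 or Ti replicate 1 or 3, left none, and leaving out Ta replicate 1 left 22.

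**Figure D4:**
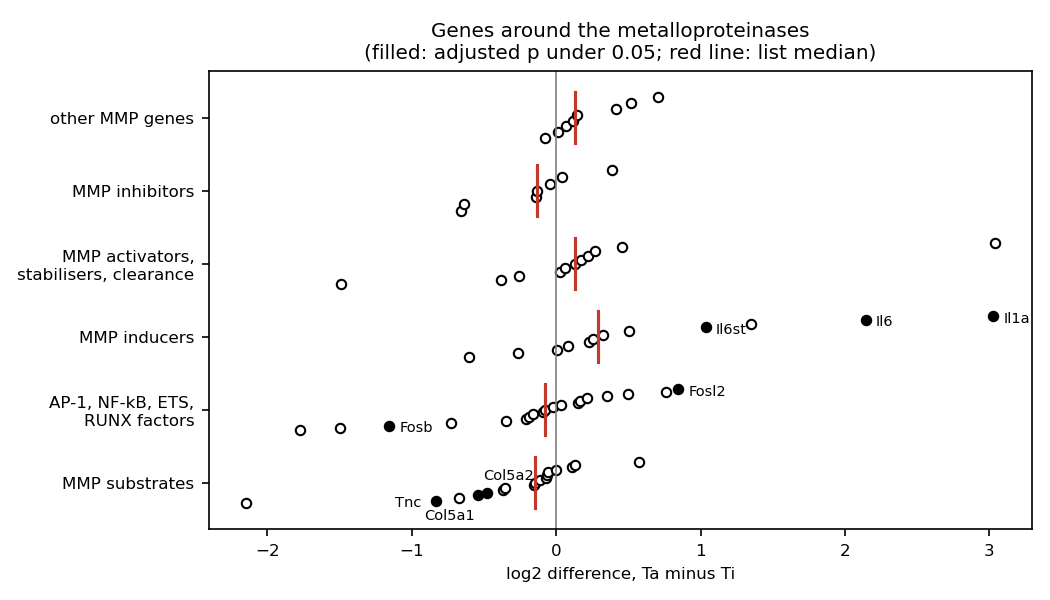
Log2 difference, Ta minus Ti (x axis), of each tested gene in 6 lists around the metalloproteinases (rows); filled points passed the adjusted p of 0.05 and carry their names, and the red line is the list's median. Il1a, Il6 and Il6st stand to the right in the inducer list, and the medians of all lists lie between -0.15 and 0.29.

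**Figure D5:**
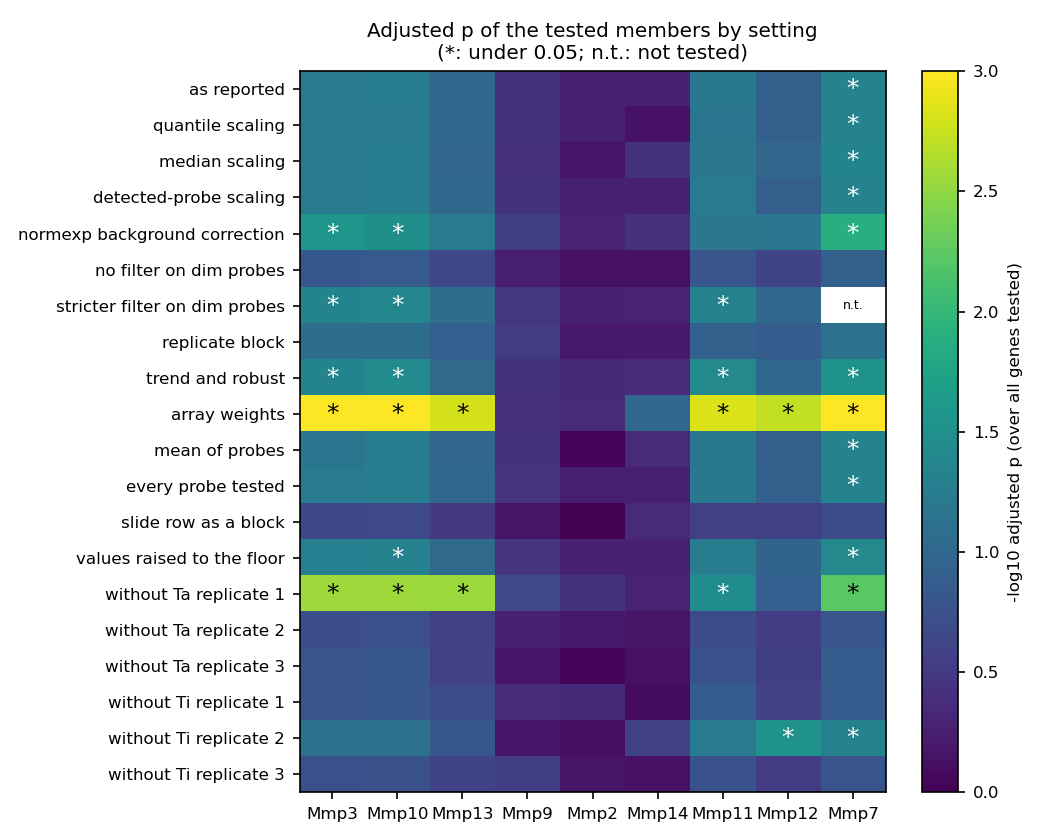
Adjusted p of the 9 tested metalloproteinase genes (columns) under each processing choice (rows), as -log10 in colour, with a star where it was under 0.05. Mmp7 passed as reported and in 11 of 18 alternatives, while Mmp2, Mmp9 and Mmp14 passed in none of 19.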

How the data were processed

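Per the labels, total RNA of 6 cultures was hybridised to one-colour Agilent arrays, 1 per culture. The deposited intensities are linear spot signals from which background was subtracted and spatial trends removed by Agilent Feature Extraction 12.0.3.1, per the file headers (version 12.0 per the submitters' processing notes, which also list limma). A table of values deposited for the whole series held the same intensities and served only for that check. Gene names differed for 93 spots in Ta replicate 2 and Ti replicate 3, so those of Ta replicate 1 were used and updated through RefSeq (31564 of 45598 probes matched).

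From these intensities log2 values were computed, minus each array's 75th percentile over non-control spots, with the percentiles' mean added back. Outlier spots were left out and spots of a probe averaged. Probes well above background on at least 3 of 6 arrays, with a value on every array, were kept (25756), and a gene was its brightest probe. Groups were compared with limma 3.58.1 in R 4.3.3 (lmFit, eBayes, two-sided), with Benjamini-Hochberg adjustment over all genes and a threshold of 0.05, and the fit was tested on simulated data. Only 3 arrays per group limit the precision. p-values measure the spread between these cultures.

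Members, lists and tests were chosen with earlier results of these data known. All members were named; of each list, up to 4 genes past the test, or the 2 with the largest difference where none passed, and the 4 TIMPs. For likeness, 3 genes were taken for the member past the test with the largest change in each direction; none passed upwards. Alternatives covered scaling, background correction (normexp, offset 50), filters, probe choice, variance model, array weights, slide row, replicate number and leaving out each array.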

Additional observations from a re-analysis of the deposited data

How the results depend on the processing

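All 170 values of the 9 tested members under the alternatives kept their direction. The members that passed, 1 of 9 as reported, numbered 3 with normexp background correction (13.3% of all genes passed), 3 of 8 with the filter set to all 6 arrays, which removes Mmp7 by construction, 4 with trended and robust variances, 6 with array weights (52% of all genes passed) and 2 with dim values raised to the floor. They numbered 0 with dim probes left unfiltered and 0 with a block for slide row, where limma called 0 genes in all, and 7 of 10 and 3 of 9 members had an unadjusted p under 0.05. Leaving out 1 array at a time gave 0 to 5. Of the members' probes, 1 of 12 passed as reported, and 4, 3, 4, 7 and 2 did with normexp, the stricter filter, trended variances, array weights and the floor; 0 did with no filter or slide row, and leaving out 1 array gave 0 to 6. Of 74 genes in the lists, 8 passed as reported, 23 with normexp, 19 with trended variances, 47 with array weights, 5 with the mean of a gene's probes, 0 with no filter and 0 with slide row, and leaving out 1 array gave 0 to 22. The causes were not tested. Over all genes, 811 passed as reported, 2601 with normexp, 1178 with the stricter filter, 2104 with trended variances, 10181 with array weights, 0 with no filter and 0 with slide row (5810 and 3835 at an unadjusted p under 0.05). It was 3228 when Ta replicate 1 was left out, 1559 for Ti replicate 2 and 0 for each of the other 4 arrays (3813 to 4470 at an unadjusted p under 0.05). Normexp gave Mmp7 -1.76. Mmp2 and Mmp14 differed by 0.00 to 0.16 and by -0.17 to -0.04 over the alternatives.

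The replicate numbers pair no samples as far as the labels say, and same-numbered deviations correlated at 0.06, 0.13 and -0.18. With the replicate number as a block, 0 of 9 members (6 at an unadjusted p under 0.05; Mmp7 had an adjusted p of 0.0781), 0 of 12 member probes, 1 of 74 list genes and 8 of all genes passed in limma. Not every sample correlated best with its own number. Signal near background limits Mmp7 on Ta and Mmp8.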
